A study of Mus musculus with 13 samples.

Results

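The genes described here are 10 listed as feedback inhibitors of the Wnt pathway, a name for genes that damp the pathway and that it can switch on. The 10 are Axin2, Nkd1, Rnf43, Znrf3, Notum, Wif1, Apcdd1, Sp5, Dkk2 and Dkk3. These genes were not tested here for either property. They were found by name, as probe sets of the value table that carry exactly 1 of these symbols, and the list of names was drawn up with earlier results of these data known. Each had 1 such probe set. They are 10 of the 19938 genes with a single-symbol probe set, and all 10 were among the 16721 genes tested, since each lay above the array's own 25th percentile on all 12 tested arrays.

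The study measured RNA in mouse enterocytes, the absorptive cells of the gut lining, on Affymetrix arrays, with 2 biological replicates in each of 6 groups. Casein kinase Iα (CKIα in the text, CKIalpha in the labels, gene Csnk1a1) was knocked out in the gut only, and the mice were also crossed to lines without p53 or p21. The double knockouts are CKIα KO/p53 KO and CKIα KO/p21 KO, each set against heterozygotes of the same cross, CKIα Het/p53 KO and CKIα Het/p21 KO. CKIα KO mice with p53 and p21 present were set against CKIα Het mice. All mice had the 129/SVJ background, and every group carried at least 1 CKIα knockout allele, so no array shows enterocytes with both CKIα copies intact. The Cre driver of the gut knockout, the reach of the p53 and p21 knockouts, and the age and sex of the mice are not given in the sources used here. The labels of a further array conflict (a double knockout with p53 by its title, a CKIα knockout alone by its genotype), and it entered no comparison.

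In the Wnt pathway, a destruction complex that contains CKIα, Apc, Axin proteins and the kinase Gsk3 marks β-catenin for degradation. Without that mark β-catenin enters the nucleus, joins TCF/LEF factors on DNA and turns on target genes, in the gut chiefly in the crypts where stem cells divide. Some of the targets act back on the pathway at its different levels: outside the cell on Wnt proteins and co-receptors, at the membrane on the Frizzled receptors, and inside the cell on Dishevelled or the destruction complex.

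Promoter sequences from RefSeq (GRCm38.p6) were used for 6 of the 10 genes. They were read on both strands for the words that TCF/LEF factors favour, CTTTG followed by AA, AT, TA or TT. The words share their first letters, so no position can match more than 1 of them. Shown are the 250 bases before the start of Axin2 and Wif1, which have among the smallest standard errors below, and of Sp5, which was the 1 gene of the 6 to hold any word. Capitals mark the words, the lines run 5′ to 3′ on the plus strand, and the windows are chr11:108920099-108920348 for Axin2, chr10:121033754-121034003 for Wif1 and chr2:70474673-70474922 for Sp5.
Axin2: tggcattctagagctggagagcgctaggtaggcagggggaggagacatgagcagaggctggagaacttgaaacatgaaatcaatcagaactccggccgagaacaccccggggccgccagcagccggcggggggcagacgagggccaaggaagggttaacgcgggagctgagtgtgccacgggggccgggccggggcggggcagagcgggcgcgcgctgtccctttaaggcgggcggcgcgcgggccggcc
Wif1: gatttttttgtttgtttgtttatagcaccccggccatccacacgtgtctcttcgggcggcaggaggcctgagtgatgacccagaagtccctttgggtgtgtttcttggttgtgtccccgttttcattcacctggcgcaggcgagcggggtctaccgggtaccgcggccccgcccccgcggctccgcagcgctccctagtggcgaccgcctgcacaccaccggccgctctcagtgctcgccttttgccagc
Sp5: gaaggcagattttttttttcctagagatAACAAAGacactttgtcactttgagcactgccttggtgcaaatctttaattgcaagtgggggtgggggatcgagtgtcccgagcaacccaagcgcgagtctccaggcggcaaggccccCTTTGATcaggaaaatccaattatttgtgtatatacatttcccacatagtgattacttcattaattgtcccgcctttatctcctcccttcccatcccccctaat
Sp5 holds AACAAAG, a word of the other strand, whose first base lies 222 bases before the start, and CTTTGAT, whose first base lies 104 bases before it. At least 1 word stood in 14.8% of all windows within these 250 bases and in 16.9% of the 32851 windows of 300 bases (250 before the start and 50 after), and 2 or more stood in 1.94%. The windows of Axin2, Wif1, Nkd1, Rnf43 and Dkk2 held none, which says only that these letters are not there. Znrf3, Notum, Apcdd1 and Dkk3 were not read.

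All values are log2 intensities, so a difference of 1 is a 2-fold change in signal, and levels of different genes are not compared, since probe sets differ in brightness for the same amount of RNA. Median array values lay between 4.96 and 5.12. Csnk1a1 itself was at 10.44 to 10.80 on all 13 arrays, with KO minus Het differences of -0.05 ± 0.13, 0.14 ± 0.13 and -0.05 ± 0.13 (SE) in the p53 KO, p21 KO and unmodified backgrounds. The exons removed by the knockout are not given in the sources used here, so this probe set checks no genotype. Xist, an RNA made from the inactive X chromosome, was at 8.91 to 10.10 on every replicate 2 array and at 3.15 to 3.94 on every replicate 1 array. The 20 epithelial and absorptive enterocyte markers all passed the filter on dim signals. So did all 13 crypt base stem cell, 8 Paneth cell and 16 lymphocyte markers on the arrays, 14 of 15 fibroblast and smooth muscle, 11 of 12 myeloid and 7 of 8 endothelial markers.

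Of the 10 inhibitors, 8 rose with loss of CKIα in enterocytes without p53. They were Axin2, Nkd1, Rnf43, Znrf3, Notum, Wif1, Dkk2 and Dkk3, by 2.22-fold (Dkk3) to 12.5-fold (Notum) in CKIα KO/p53 KO against CKIα Het/p53 KO enterocytes, and 0 fell. Of all genes tested, 11% rose and 6.82% fell in this comparison, by the same call of an adjusted p under 0.05 from limma, and the median difference was 1.76 over the 10 inhibitors and -0.06 over all genes. Without p21, 2 inhibitors rose, Axin2 and Rnf43, and 0 fell, beside 1.46% and 0.514% of all genes, with medians of 0.60 and -0.0059. With p53 and p21 present, limma called 0 of the 10 higher and 0 lower, beside 0.0239% of all genes higher and 0% lower, with medians of 0.31 and 0.02. There, 2 of the 10 (Axin2 and Rnf43) and 1520 of the 16721 genes had an unadjusted p under 0.05, in either direction. In bulk samples, a change in the share of cells that make an RNA and a change in the RNA per cell cannot be told apart.

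**Figure D1:**
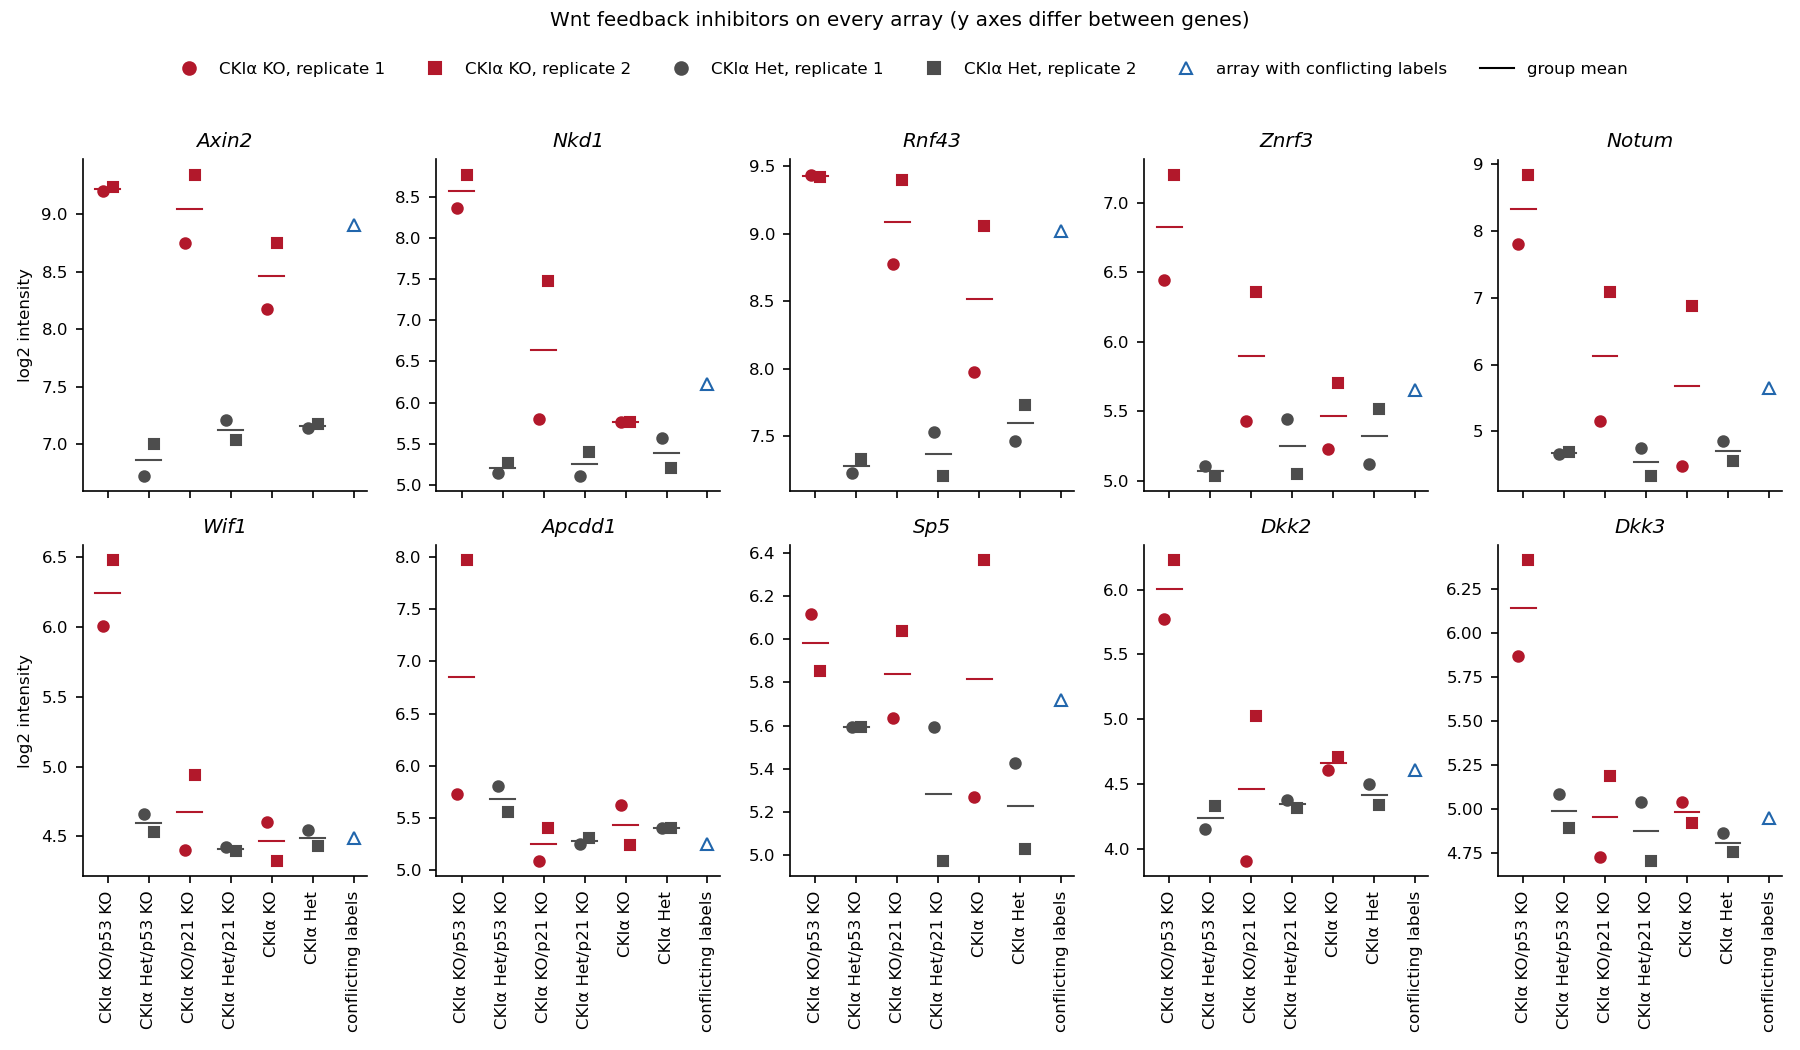
Log2 intensity (y axis, own scale for each gene) of the 10 inhibitors on all 13 arrays (x axis, by group); red symbols are CKIα KO groups, grey symbols CKIα Het groups, circles replicate 1, squares replicate 2, bars group means, and the open triangle is the array with conflicting labels. Axin2, Nkd1 and Rnf43 lie higher on all 6 KO arrays than on all 6 Het arrays. For Nkd1, Rnf43, Znrf3, Notum, Wif1, Dkk2 and Dkk3, both CKIα KO/p53 KO arrays lie above all 10 arrays of the other groups.

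Axin2 is a scaffold of the destruction complex and the member most often used as a readout of Wnt signalling. It was at 9.20 and 9.23 on the CKIα KO/p53 KO arrays, against 6.73 and 7.003 on the CKIα Het/p53 KO arrays. It was at 8.75 and 9.35 on the CKIα KO/p21 KO arrays, against 7.22 and 7.04 on the CKIα Het/p21 KO arrays, and at 8.17 and 8.75 on the CKIα KO arrays, against 7.14 and 7.18 on the CKIα Het arrays. The KO and Het arrays did not overlap in any of the 3 backgrounds. Axin2 rose 5.10-fold without p53 (2.35 ± 0.23, SE, n = 2 per group, limma adjusted p = 0.00341) and 3.78-fold without p21 (1.92 ± 0.23, limma adjusted p = 0.0140). With both genes present its difference was 1.30 ± 0.23, and it did not pass the test (limma adjusted p = 0.106).

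Nkd1, a cytoplasmic protein that binds Dishevelled, showed the same order of group means, with wider gaps between the KO groups and a smaller difference between CKIα KO and CKIα Het. It was at 8.37 and 8.77 in CKIα KO/p53 KO, against 5.14 and 5.27 in CKIα Het/p53 KO. It was at 5.80 and 7.48 in CKIα KO/p21 KO, against 5.11 and 5.39 in CKIα Het/p21 KO, and at 5.77 on both CKIα KO arrays, against 5.57 and 5.21 in CKIα Het. Again all 6 KO arrays were above all 6 Het arrays, with the CKIα KO/p21 KO replicates far apart. Nkd1 rose 10.3-fold without p53 (3.37 ± 0.42, limma adjusted p = 0.00526), and its differences of 1.39 ± 0.42 without p21 and 0.38 ± 0.42 with both genes did not pass (limma adjusted p = 0.0957 and 0.867).

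Rnf43 and Znrf3 are a pair of membrane ubiquitin ligases that remove Frizzled receptors from the cell surface. Rnf43 was at 9.44 and 9.42 in CKIα KO/p53 KO, against 7.23 and 7.33 in CKIα Het/p53 KO. It was at 8.78 and 9.40 in CKIα KO/p21 KO, against 7.53 and 7.21 in CKIα Het/p21 KO, and at 7.97 and 9.05 in CKIα KO, against 7.47 and 7.73 in CKIα Het. No KO array of Rnf43 reached down to a Het array, and the replicates lay closest together in CKIα KO/p53 KO and farthest apart in CKIα KO. Rnf43 rose 4.43-fold without p53 (2.15 ± 0.32, limma adjusted p = 0.00763) and 3.29-fold without p21 (1.72 ± 0.32, limma adjusted p = 0.0434), while 0.91 ± 0.32 with both genes did not pass (limma adjusted p = 0.400).

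Znrf3 was at 6.44 and 7.20 in CKIα KO/p53 KO, against 5.10 and 5.03 in CKIα Het/p53 KO. In the other backgrounds it was at 5.43 and 6.36 in CKIα KO/p21 KO, against 5.44 and 5.05 in CKIα Het/p21 KO, and at 5.23 and 5.70 in CKIα KO, against 5.12 and 5.52 in CKIα Het. The KO and Het arrays were separate without p53 and overlapped in the other backgrounds, unlike those of its partner Rnf43. Znrf3 rose 3.38-fold without p53 (1.75 ± 0.34, limma adjusted p = 0.0115), with differences of 0.65 ± 0.34 without p21 and 0.15 ± 0.34 with both genes that did not pass (limma adjusted p = 0.287 and 0.951).

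Notum, a secreted enzyme that removes the lipid from Wnt proteins and so inactivates them, had the largest difference of the 10 inhibitors without p53 and also the widest replicate spread of the 10, with an SE of 0.75. It was at 7.81 and 8.84 in CKIα KO/p53 KO, against 4.67 and 4.69 in CKIα Het/p53 KO. It was at 5.16 and 7.08 in CKIα KO/p21 KO, against 4.74 and 4.34 in CKIα Het/p21 KO, and at 4.49 and 6.87 in CKIα KO, against 4.86 and 4.55 in CKIα Het. Replicate 2 of CKIα KO was far above both Het arrays and replicate 1 was below them. Notum rose 12.5-fold without p53 (3.65 ± 0.75, limma adjusted p = 0.0137), and 1.58 ± 0.75 without p21 and 0.98 ± 0.75 with both genes did not pass (limma adjusted p = 0.241 and 0.781).

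Wif1, Dkk2 and Dkk3 are secreted proteins: Wif1 binds Wnt proteins, Dkk2 binds the co-receptors Lrp5 and Lrp6, and Dkk3 is the most divergent member of the Dickkopf family. Wif1 was at 6.01 and 6.48 in CKIα KO/p53 KO, against 4.66 and 4.53 in CKIα Het/p53 KO. On the other 8 arrays it stayed between 4.32 and 4.94: at 4.40 and 4.94 in CKIα KO/p21 KO against 4.42 and 4.40 in CKIα Het/p21 KO, and at 4.60 and 4.32 in CKIα KO against 4.54 and 4.43 in CKIα Het. The 2 CKIα KO/p53 KO arrays were thus the only ones of the 12 above 5 for Wif1. It rose 3.14-fold without p53 (1.65 ± 0.21, limma adjusted p = 0.00546), and 0.26 ± 0.21 without p21 and -0.02 ± 0.21 with both genes did not pass (limma adjusted p = 0.524 and 0.990). By mean over the 12 arrays, Wif1 stood at percentile 42.3 of genes, Dkk2 at 40.3 and Dkk3 at 46.6. RMA compresses fold changes of dim probe sets, which limits what small differences of these genes show.

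Dkk2 was at 5.78 and 6.23 in CKIα KO/p53 KO, against 4.15 and 4.33 in CKIα Het/p53 KO. It was at 3.90 and 5.02 in CKIα KO/p21 KO, against 4.37 and 4.31 in CKIα Het/p21 KO, and at 4.61 and 4.71 in CKIα KO, against 4.50 and 4.33 in CKIα Het. The CKIα KO/p21 KO replicates lay on either side of their Het arrays. Dkk2 rose 3.40-fold without p53 (1.77 ± 0.30, limma adjusted p = 0.00858), and 0.12 ± 0.30 without p21 and 0.25 ± 0.30 with both genes did not pass (limma adjusted p = 0.876 and 0.886).

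Dkk3 was at 5.87 and 6.41 in CKIα KO/p53 KO, against 5.09 and 4.89 in CKIα Het/p53 KO. It was at 4.73 and 5.19 in CKIα KO/p21 KO, against 5.04 and 4.71 in CKIα Het/p21 KO, and at 5.04 and 4.92 in CKIα KO, against 4.86 and 4.76 in CKIα Het. As with Wif1, both CKIα KO/p53 KO arrays were above the other 10. Dkk3 rose 2.22-fold without p53 (1.15 ± 0.22, limma adjusted p = 0.0113), and 0.08 ± 0.22 without p21 and 0.17 ± 0.22 with both genes did not pass (limma adjusted p = 0.883 and 0.889).

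Apcdd1, a membrane glycoprotein that binds Wnt proteins and Lrp5, and Sp5, a zinc finger factor that damps the transcription of Wnt targets, were not called in any background. Apcdd1 was at 5.73 and 7.97 in CKIα KO/p53 KO, against 5.81 and 5.56 in CKIα Het/p53 KO, so its higher mean came from replicate 2 alone (1.16 ± 0.53, limma adjusted p = 0.153). On the other 8 arrays Apcdd1 was at 5.09 to 5.62. Sp5 was at 6.12 and 5.85 in CKIα KO/p53 KO, against 5.59 on both CKIα Het/p53 KO arrays, with a difference of 0.39 ± 0.34 (limma adjusted p = 0.439). It was at 5.64 and 6.04 in CKIα KO/p21 KO, against 5.59 and 4.97 in CKIα Het/p21 KO, and at 5.27 and 6.37 in CKIα KO, against 5.43 and 5.03 in CKIα Het. The Sp5 differences of 0.39, 0.56 and 0.59 in the p53 KO, p21 KO and unmodified backgrounds lay within 1 SE of each other. Those of Apcdd1 were 1.16, -0.04 and 0.02.

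**Figure D2:**
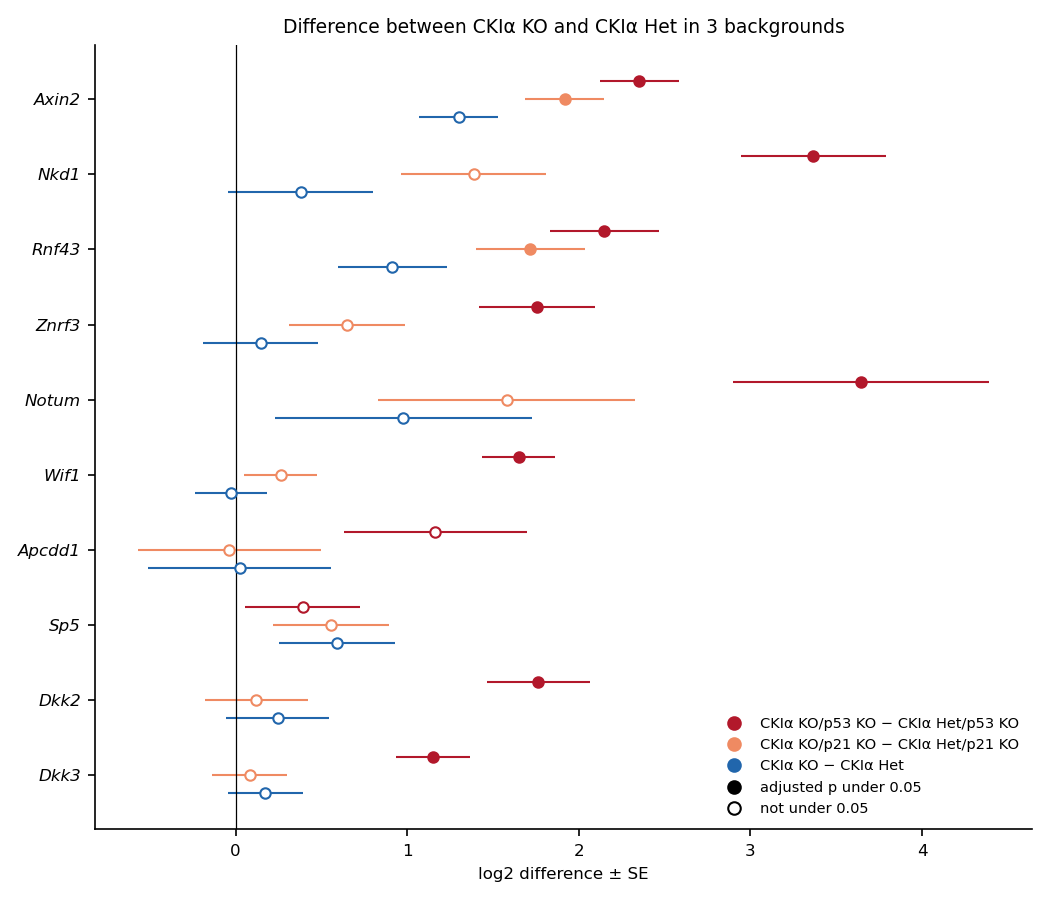
Difference in log2 intensity between CKIα KO and CKIα Het (x axis, ± SE of the limma fit) for the 10 inhibitors (y axis) without p53, without p21 and with both genes; filled points have an adjusted p under 0.05. Filled points number 8 without p53, 2 without p21 and 0 with both genes.

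Counted array by array, 9 of the 10 inhibitors, all but Apcdd1, had both CKIα KO/p53 KO arrays above both CKIα Het/p53 KO arrays, as had 28.9% of all genes. The count was 5 of 10 for the p21 pair of groups (Axin2, Nkd1, Rnf43, Notum and Sp5; 26.9% of all genes) and 5 of 10 for CKIα KO above CKIα Het (Axin2, Nkd1, Rnf43, Dkk2 and Dkk3; 22.3% of all genes). Axin2, Nkd1 and Rnf43 were higher on all 6 KO arrays than on all 6 Het arrays, a separation found for 3.74% of all genes. For 7 of the 10, namely Nkd1, Rnf43, Znrf3, Notum, Wif1, Dkk2 and Dkk3, both CKIα KO/p53 KO arrays were above all 10 arrays of the other groups, as for 6.14% of all genes. The counts of called inhibitors leaned on single arrays, as did the calls over all genes, of which there were 2981 without p53 and 330 without p21. Without CKIα Het/p53 KO replicate 1, the 8 calls without p53 became 1 (Axin2, limma adjusted p = 0.0449), with limma adjusted p-values of 0.0629 to 0.0773 for the other 7, and 20 genes were called in all. Without CKIα Het/p53 KO replicate 2 they became 5 (653 genes in all), with Znrf3, Notum and Dkk3 dropped. Without CKIα KO/p53 KO replicate 2 they became 4 (249 genes), with Dkk2 dropped too, and without CKIα KO/p53 KO replicate 1 they became 9 (1312 genes), with Apcdd1 added. The 2 calls without p21 became 0 without either CKIα Het/p21 KO array (18 and 0 genes in all) or without CKIα KO/p21 KO replicate 2 (14 genes), and 5 without CKIα KO/p21 KO replicate 1 (2776 genes). They became 1 (Axin2) without any single array of the CKIα Het, CKIα Het/p53 KO or CKIα KO/p53 KO groups (15 to 35 genes). With p53 and p21 present, Axin2 was called without CKIα KO replicate 1 (63 genes in all) or without either CKIα KO/p21 KO array (84 genes).

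Averaged over the 3 backgrounds, 8 of the 10 inhibitors rose with loss of CKIα, beside 15.5% of all genes. Axin2 had the smallest adjusted p (1.86 ± 0.13, limma adjusted p = 0.000707) and Notum the largest average difference (2.07 ± 0.43, limma adjusted p = 0.00902). The others were Nkd1 (1.71), Rnf43 (1.59), Znrf3 (0.85), Dkk2 (0.71), Wif1 (0.63) and Dkk3 (0.47), with limma adjusted p-values between 0.00194 and 0.0238. A call of the average does not mean a rise in each background. In the order without p53, without p21 and with both genes, the differences were 1.65, 0.26 and -0.02 for Wif1. They were 1.77, 0.12 and 0.25 for Dkk2, and 1.15, 0.08 and 0.17 for Dkk3. Sp5 (0.51 ± 0.19, limma adjusted p = 0.0826) and Apcdd1 (0.38 ± 0.31, limma adjusted p = 0.388) did not pass. The Dkk3 call was lost when either CKIα Het array or replicate 2 of any group but CKIα KO was left out (limma adjusted p up to 0.0693).

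Whether the KO minus Het difference itself depended on p53 or p21 was tested by the difference of the differences. For p53, it was largest for Nkd1 (2.99 ± 0.60), Notum (2.67 ± 1.06), Wif1 (1.67 ± 0.30), Znrf3 (1.61 ± 0.48) and Dkk2 (1.52 ± 0.43), all in the direction of a larger difference without p53. Limma called 0 of the 10, beside 0.012% of all genes called higher, and the smallest adjusted p, 0.170, was shared by Nkd1 and Wif1. An unadjusted p under 0.05 was found for 8 of the 10 and for 2485 of the 16721 genes, in either direction. Sp5 was the 1 inhibitor with a negative value (-0.20 ± 0.48, limma adjusted p = 0.869). Without either array of CKIα KO/p21 KO, 3 were called (Nkd1, Wif1 and Dkk2; 244 genes in all), and without CKIα KO/p53 KO replicate 1, 1 was (Apcdd1; 13 genes). For p21, 0 of the 10 and 1359 of the 16721 genes had an unadjusted p under 0.05. Limma called 0 of the 10, with a smallest adjusted p of 0.646 (Axin2, 0.62 ± 0.33), beside 0% of all genes. Without CKIα KO/p21 KO replicate 1, 1 was called (Nkd1; 108 genes in all).

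Set against each other, the knockout groups differed most clearly for Wif1. In CKIα KO/p53 KO against CKIα KO, Wif1 was 3.44-fold higher (1.78 ± 0.21, limma adjusted p = 0.0138) and Nkd1 6.98-fold higher (2.80 ± 0.42, limma adjusted p = 0.0412), and these 2 of the 10 were called, beside 0.466% of all genes. Those with an unadjusted p under 0.05 numbered 9 of 10, all but Sp5, beside 3727 of the 16721 genes in either direction. Dkk3 (1.16 ± 0.22, limma adjusted p = 0.0506), Dkk2 (1.34 ± 0.30, 0.0608), Znrf3 (1.36 ± 0.34, 0.0689) and Notum (2.64 ± 0.75, 0.0886) stood just beyond the threshold. Axin2 (0.76 ± 0.23, limma adjusted p = 0.103) and Rnf43 (0.92 ± 0.32, 0.135) differed less. With the replicate number as a block, 4 were called, Dkk3 (limma adjusted p = 0.0456) and Dkk2 (0.0481) beside Wif1 and Nkd1. That setting called 338 genes in all, against 116 without the block. With each of the 12 arrays left out in turn, the Nkd1 call held in 2 of 12 repeats and the Wif1 call in 10 of 12. The 2 calls became 7 without either CKIα KO/p21 KO array (1447 and 1444 genes in all), 0 without CKIα KO replicate 1 or CKIα KO/p53 KO replicate 2 (7 and 10 genes), and 1 without any single array of the 3 Het groups (20 to 25 genes).

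Against CKIα KO/p21 KO, CKIα KO/p53 KO enterocytes had Wif1 2.97-fold higher (1.57 ± 0.21, limma adjusted p = 0.0208), and no other member was called, beside 0.114% of all genes. Dkk3 (1.18 ± 0.22, limma adjusted p = 0.0717), Dkk2 (1.54 ± 0.30, 0.0922), Nkd1 (1.93 ± 0.42, 0.133) and Notum (2.20 ± 0.75, 0.394) were higher in their means without passing. Axin2 and Rnf43 were nearly level, with differences of 0.17 (95% interval -0.34 to 0.68) and 0.34 (-0.37 to 1.05). The Wif1 call was lost without CKIα KO/p21 KO replicate 1 or CKIα KO/p53 KO replicate 2, with 49 and 18 genes called in all, against 55 with all arrays. The count was 4 without CKIα KO/p21 KO replicate 2 (217 genes) and 3 without CKIα KO/p53 KO replicate 1 (77 genes). In CKIα KO/p21 KO against CKIα KO, limma called 0 of the 10, beside 0.0239% of all genes. An unadjusted p under 0.05 was found for 1 of the 10 (Axin2, 0.59 ± 0.23, limma adjusted p = 0.371) and for 2005 of the 16721 genes. Without CKIα KO/p21 KO replicate 1, 1 was called (Nkd1; 1148 genes in all).

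**Figure D3:**
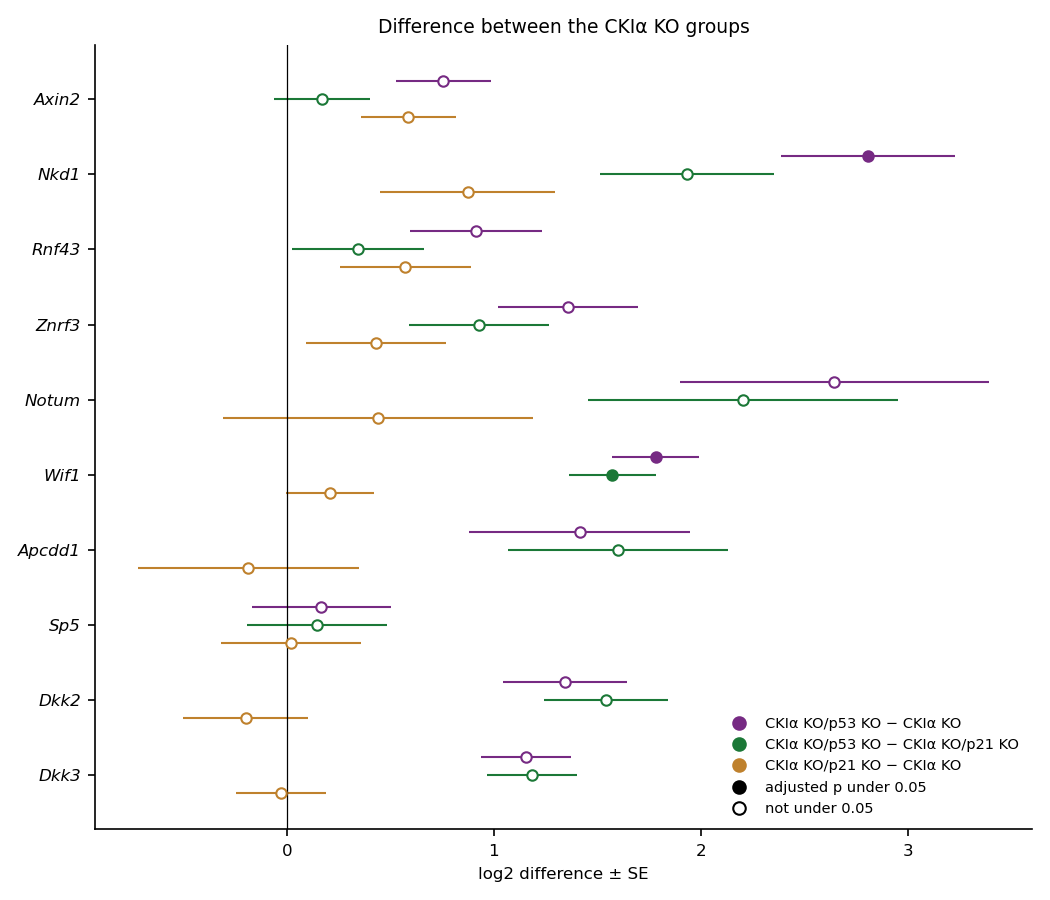
Difference in log2 intensity between the 3 CKIα KO groups (x axis, ± SE of the limma fit) for the 10 inhibitors (y axis); filled points have an adjusted p under 0.05. The filled points are Wif1 and Nkd1 in CKIα KO/p53 KO against CKIα KO, and Wif1 in CKIα KO/p53 KO against CKIα KO/p21 KO.

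In the heterozygotes, loss of p53 or p21 moved none of the 10 past the test. Differences ran from -0.32 to 0.37 in CKIα Het/p53 KO against CKIα Het and from -0.23 to 0.06 in CKIα Het/p21 KO against CKIα Het. Limma called 0 in each, beside 0% and 0.00598% of all genes called higher. An unadjusted p under 0.05 was found for 0 of the 10 in each, and for 941 and 837 of the 16721 genes.

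By group means, Axin2, Nkd1, Rnf43, Znrf3, Notum and Sp5 had the same order of groups from high to low: CKIα KO/p53 KO, CKIα KO/p21 KO, CKIα KO and then the 3 Het groups. Neighbouring KO groups in that order passed no test between them for these genes, CKIα KO/p53 KO against CKIα KO/p21 KO having limma adjusted p-values from 0.133 (Nkd1) to 0.955 (Sp5). For Wif1, Dkk2 and Dkk3 the CKIα KO/p53 KO mean stood alone, at 6.24, 6.003 and 6.14. The other 5 means ran from 4.41 to 4.67 for Wif1, from 4.24 to 4.66 for Dkk2 and from 4.81 to 4.99 for Dkk3. For Apcdd1 the CKIα KO/p53 KO mean of 6.85 ± 1.58 (SD, n = 2) did not pass the tests against CKIα Het/p53 KO, CKIα KO or CKIα KO/p21 KO, the 3 groups it was set against.

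The genes whose values followed each inhibitor most closely were found by Pearson's r over the 12 arrays, among all tested genes, as a description: the arrays share the 6 genotypes, so genes with a similar genotype pattern correlate. Rnf43 was among the 3 closest to Axin2 (r = 0.982), with Dhx33 (0.982) and Fam185a (0.978). Nkd1 was followed most closely by Etv5 (0.983), Fads1 (0.980) and Ecscr (0.980), and Notum by Msx1 (0.978), the protease gene Mmp7 (0.977) and Ecscr (0.975). Dkk3 was among the 3 closest to Wif1 (0.976), after the vitamin A transporter gene Stra6 (0.980) and the lipase-related Pnliprp1 (0.977). Among pairs of inhibitors the lowest r was 0.166, for Apcdd1 and Sp5.

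Within some groups, most inhibitors lay higher on the same replicate. In CKIα KO/p21 KO, all 10 were higher on replicate 2 than on replicate 1, by a median of 0.61, while 56.4% of all genes were higher there. In CKIα KO/p53 KO, 8 of 10 were higher on replicate 2 (median 0.46; 52.7% of all genes), in CKIα KO 6 of 10 with 1 equal (median 0.29; 45% of all genes), and in CKIα Het/p21 KO 2 of 10 (median -0.25; 43% of all genes). The same replicate 2 array of CKIα KO/p21 KO had a lower summed signal of enterocyte markers (16.12, against 16.64 on replicate 1). Lower too were lymphocyte (10.64, against 11.98) and fibroblast and smooth muscle markers (9.10, against 10.08). Higher were Paneth (13.55, against 12.48), crypt base (12.19, against 11.88), myeloid (9.14, against 8.97) and endothelial markers (7.15, against 7.05). In CKIα KO/p53 KO the crypt base sum was lower on replicate 2 (11.73, against 12.22). Xist was also high on replicate 2 and low on replicate 1 in all 6 groups. The part of these markers, and of whatever Xist follows, in the difference between replicates was not tested.

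The rest of the pathway was described from lists of other Wnt genes. Over all genes tested, 11% rose and 6.82% fell without p53. The shares were 1.46% and 0.514% without p21, and 0.0239% and 0% with both genes present. Among 26 other Wnt target genes, 12 rose and 0 fell in CKIα KO/p53 KO against CKIα Het/p53 KO, with a median of 1.29. Their differences ran from -1.58 to 4.24, with 22 of 26 above 0. The smallest p-values belonged to Plat, which encodes tissue plasminogen activator (8.16 and 9.26, against 4.45 and 4.49; 18.9-fold, limma adjusted p = 0.00427), the transcription factor Prox1 (7.76 and 8.49, against 4.75 and 4.85; 9.98-fold, 0.00763), the cyclin Ccnd2 (12.09 and 11.74, against 9.76 and 9.96; 4.15-fold, 0.00772) and the protease Mmp7 (10.11 and 10.71, against 7.60 and 7.77; 6.61-fold, 0.0127). In CKIα KO/p21 KO against CKIα Het/p21 KO 1 of the 26 rose, the Notch ligand Jag1 (7.36 and 7.71, against 6.36 and 6.14; 1.28 ± 0.15, limma adjusted p = 0.0130), with a list median of 1.06. Limma called 0 of the 26 with both genes present, where the median was 0.21.

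Of 23 other Wnt inhibitors tested, among them Nkd2, the Sfrp family and the Dickkopf genes Dkk1 and Dkk4, 0 rose and 1 fell without p53. Their differences ran from -0.83 to 0.23, with 4 of 23 above 0 and a median of -0.21, beside -0.06 over all genes. The 1 was Dact2, a protein that binds Dishevelled, at 5.73 and 5.80 in CKIα KO/p53 KO against 6.72 and 6.46 in CKIα Het/p53 KO (-0.83 ± 0.16, limma adjusted p = 0.0113). Dact2 also fell without p21, at 6.06 and 5.81 in CKIα KO/p21 KO against 6.74 and 6.66 in CKIα Het/p21 KO (-0.77 ± 0.16, limma adjusted p = 0.0481), again as 1 of 23 with 0 higher. Of 18 receptors and co-receptors, 1 rose without p53, the R-spondin receptor Lgr4 (1.21 ± 0.36, limma adjusted p = 0.0459), and 1 fell, the Frizzled receptor Fzd5 (-0.89 ± 0.22, limma adjusted p = 0.0238). Over all genes, 11% rose and 6.82% fell without p53, and 1.46% and 0.514% without p21.

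Of 24 ligand and R-spondin genes 0 rose and 3 fell without p53: Wnt2 (-0.62 ± 0.15, limma adjusted p = 0.0227), Wnt9b (-0.50 ± 0.12, 0.0235) and Wnt3a (-0.74 ± 0.20, 0.0311), whose highest value on the 4 arrays compared was 5.48. Of 16 genes of the destruction complex and its transducers 1 rose, the kinase Csnk1e (7.46 and 7.79 in CKIα KO/p53 KO, against 6.75 and 6.40 in CKIα Het/p53 KO; 1.05 ± 0.25, limma adjusted p = 0.0210), and 0 fell. Medians of these lists without p53 were -0.12 for receptors, -0.15 for ligands and 0.05 for the destruction complex, beside -0.06 over all genes. In the same comparison 11% of all genes rose and 6.82% fell. In the other backgrounds limma called 0 genes of these 3 lists.

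**Figure D4:**
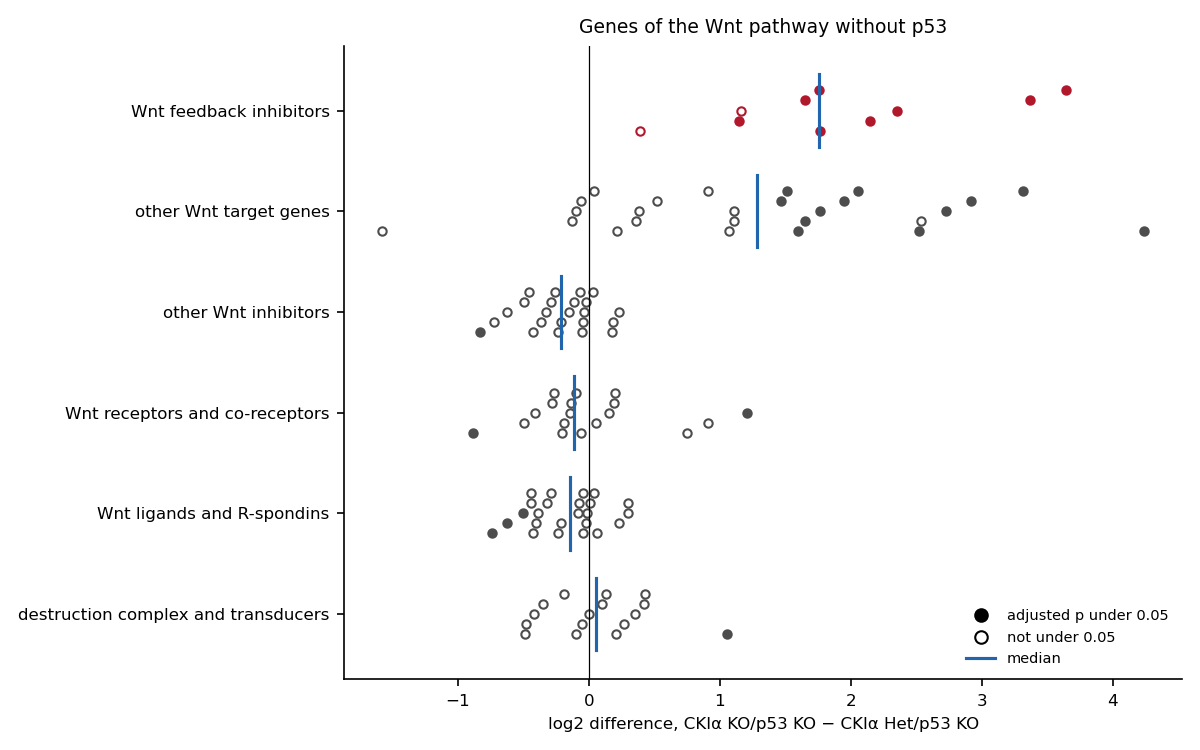
Difference in log2 intensity between CKIα KO/p53 KO and CKIα Het/p53 KO (x axis) for each tested gene of 6 Wnt lists (y axis); filled points have a limma adjusted p under 0.05 and blue bars are list medians. The medians are 1.76 for the feedback inhibitors, 1.29 for other targets and between -0.21 and 0.05 for the other 4 lists. The lists were drawn up with earlier results of these data known.

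Cell type markers moved beside the inhibitors in the comparison without p53, where 11% of all genes rose and 6.82% fell. Of 20 epithelial and absorptive enterocyte markers 7 fell and 0 rose, with a summed signal of 16.26 and 16.18 (log2) in CKIα KO/p53 KO against 16.81 and 16.88 in CKIα Het/p53 KO. Among the 7 were the brush border peptidase Enpep (-1.85 ± 0.25, limma adjusted p = 0.00689), the cobalamin receptor Cubn (-4.05 ± 0.71, 0.00913), the peptide transporter Slc15a1 (-1.71 ± 0.34, 0.0129) and lactase, Lct (-4.57 ± 0.94, 0.0141). Of 13 crypt base markers 5 rose and 0 fell, among them Cdca7 (1.58 ± 0.33, limma adjusted p = 0.0147) and Msi1 (1.48 ± 0.31, 0.0149), with a summed signal of 12.22 and 11.73 against 11.69 and 11.75. The differences of 4 of the 13 were below 0, the lowest that of the stem cell marker Olfm4 (-1.58 ± 0.61, limma adjusted p = 0.0973), named here after its value was seen. Olfm4 fell in the average over the 3 backgrounds (-1.31 ± 0.35, limma adjusted p = 0.0242). Of 8 Paneth markers 1 rose, Mmp7, with a summed signal of 13.65 and 14.07 against 13.02 and 13.30. The crypt base and Paneth lists share genes with the list of other Wnt targets, among them Olfm4 and Mmp7, so these are not separate observations. The part of the markers in the rise of the inhibitors was not tested.

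For markers of cells outside the epithelium, 0 of 14 fibroblast and smooth muscle genes were called by limma, and their summed signal was 9.37 and 9.24 in CKIα KO/p53 KO against 9.20 and 9.22 in CKIα Het/p53 KO. For lymphocyte markers it was 12.56 and 11.09 against 11.07 and 12.45, with 0 of 16 called by limma. Myeloid markers summed to 9.07 and 9.10 against 8.75 and 8.87, with 2 of 11 higher, and endothelial markers to 7.23 and 7.46 against 7.21 and 7.43, with 1 of 7 lower. The lymphocyte sums of the 2 groups crossed, and the endothelial sums of the 2 groups overlapped. Over all genes, 11% rose and 6.82% fell in this comparison. In the comparison without p21, where Axin2 and Rnf43 rose, limma called 0 of the 20 enterocyte markers, with sums of 16.64 and 16.12 in CKIα KO/p21 KO against 16.61 and 16.72 in CKIα Het/p21 KO. Lymphocyte sums were 11.98 and 10.64 against 12.32 and 13.35, and fibroblast and smooth muscle sums 10.08 and 9.10 against 10.02 and 11.06. Crypt base sums were 11.88 and 12.19 against 12.02 and 11.08, with 0 of 13 called by limma and 10 of 13 differences above 0. Paneth sums were 12.48 and 13.55 against 13.41 and 12.56, with 0 of 8 called. Over all genes, 1.46% rose and 0.514% fell without p21. The part of these levels in the 2 calls was not tested.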

How the data were processed

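Per the labels' protocols, total RNA of mouse enterocytes was hybridized to Affymetrix arrays, and the authors took intensities by RMA Sketch in Expression Console 1.1 and normalized them by the median. The values of the deposited table were taken as log2 intensities from their range, since the base of the logarithm is not stated. RMA compresses fold changes of dim probe sets, and the number of arrays limits the precision.

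Genes were named from the platform annotation: 21789 of 35556 probe sets carry 1 symbol, 1621 several and 12146 none. A gene with several probe sets was represented by the one with the highest mean. Genes above the array's 25th percentile on at least 2 of 12 arrays were tested.

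Limma 3.58.1 (R 4.3.3) was fitted to 12 arrays with 1 coefficient per group and 6 residual degrees of freedom, and p-values from its empirical Bayes step were adjusted by Benjamini and Hochberg over the 16721 genes of each of 11 comparisons. Calls used an adjusted p under 0.05. The 13th array, whose labels conflict, was left out. The fit was tested on simulated data. Alternatives were no filter, quantile normalization, an intensity trend, the mean of a gene's probe sets, a replicate block, and each array left out. Comparisons that share a group are not independent. All members are named, with up to 4 genes of smallest p from each other list and the 3 genes closest to a member in Pearson's r. Members, gene lists and the rule for naming genes were chosen with earlier results of these data known. Promoter sequences are from RefSeq, GRCm38.p6.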

Additional observations from a re-analysis of the deposited data

Results flagged for a closer look

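The array with conflicting labels, titled as CKIα KO/p53 KO but sourced as CKIα knockout alone, entered no comparison, and 7 of the 10 inhibitors were higher on it than on every CKIα Het array. Axin2 was at 8.91 (highest Het array 7.22), Rnf43 at 9.02 (7.73), Nkd1 at 6.22 (5.57) and Notum at 5.66 (4.86). Znrf3 at 5.65 (5.52), Sp5 at 5.72 (5.59) and Dkk2 at 4.61 (4.50) were above by less. Wif1 at 4.49, Apcdd1 at 5.25 and Dkk3 at 4.95 were not above the highest Het array. All 10 were below both CKIα KO/p53 KO arrays and between the 2 CKIα KO/p21 KO arrays, and 7 were between the 2 CKIα KO arrays, with Axin2 and Nkd1 above both and Dkk2 equal to CKIα KO replicate 1. The shares of all genes in these positions were not counted, so these counts have no background to be read against. The difference between this array and the groups was not tested.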

How the results depend on the processing

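Over the 11 comparisons limma made 21 calls of inhibitors. Without the filter, with quantile normalization, with the intensity trend, with probe sets averaged and with the replicate block, 105 of 105 repeats of these calls held, and with an array left out 206 of 252 held, with 0 changes of direction among them. Of the counts of inhibitors called, these settings moved 1: CKIα KO/p53 KO against CKIα KO had 4 calls in place of 2 with the replicate block, and 3 with quantile normalization or with probe sets averaged (Dkk3 added). With each array left out in turn, the count ranged from 1 to 9 without p53, from 0 to 5 without p21, from 0 to 1 with both genes and from 7 to 9 for the average. It ranged from 0 to 3 for the difference of differences of p53 and from 0 to 1 for that of p21. It ranged from 0 to 7 for CKIα KO/p53 KO against CKIα KO, from 0 to 4 for CKIα KO/p53 KO against CKIα KO/p21 KO, and from 0 to 1 for CKIα KO/p21 KO against CKIα KO. The p53 and p21 comparisons of heterozygotes stayed at 0. An array left out leaves a lone array in its group, assumed to vary like the others; the cause of the shifts was not tested. The labels do not say that replicate numbers pair the arrays. Xist followed the number in all 6 groups, while deviations of same-numbered arrays over all genes correlated from -0.162 to 0.248 over 15 pairs of groups, with 5 of 15 above 0.1.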

Other observations

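Some deposited values repeat exactly between arrays: 5356 of the 16721 tested genes (32%) had a value found on more than 1 of the 12 arrays, and 1.5% of gene and group pairs had 2 identical replicates. Genes with a repeated value were dimmer, with a median of 4.71 over the 12 arrays against 6.03 for all tested genes. Of the inhibitors, Nkd1 (2 arrays), Apcdd1 (3), Sp5 (3) and Dkk3 (2) held such values, and 3 of 60 pairs had identical replicates: Nkd1 in CKIα KO, Apcdd1 in CKIα Het and Sp5 in CKIα Het/p53 KO. Their replicate SD of 0 counts toward the spread that limma estimates for these genes.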
